A study of Mus musculus with 8 samples.

Results

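The 10 genes *Tlr2*, *Tlr3*, *Tlr4*, *Myd88*, *Tirap*, *Ticam1*, *Ticam2*, *Irak1*, *Irak2* and *Irak4* code for Toll-like receptors (TLRs), the adaptors of TLRs and interleukin-1 (IL-1) receptors, and the kinases that bind those adaptors. They were chosen by name and not by a rule on measured values, from the 55487 genes of the count table, but with earlier results of these data known. All 10 had at least 1 read in every sample and passed the filter on low counts, which kept 20610 genes. RNA was measured in long-term hematopoietic stem cells (LT-HSCs, LSK CD48- CD150+) that were sorted from mouse fetal liver at E14.5, with 500 cells in each of 8 samples. The mice carried a targeted deletion of *Nfkbia*, the gene of the NF-κB inhibitor IκBα, in every cell rather than in blood cells alone, and embryos came from matings between heterozygotes. There were 3 WT samples (both alleles intact), 3 HET samples (1 allele deleted) and 2 KO samples (both alleles deleted), and a further KO sample was left out by the study for its sequencing quality. WT1, WT2 and HET1 were male and are labelled total RNA, whereas WT3, HET2, HET3, KO1 and KO2 were female and are labelled polyA RNA. Sex and the RNA label therefore cannot be told apart, and both KO samples lie on the female side.

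TLRs are receptors of innate immunity that recognize molecules of microbes. TLR2 senses bacterial lipopeptides and TLR4 senses lipopolysaccharide at the cell surface, and TLR3 senses double-stranded RNA in endosomes. MyD88 couples all TLRs except TLR3, and also the receptors of IL-1, IL-18 and IL-33, to the kinase IRAK4, which activates IRAK1 and IRAK2. TIRAP brings MyD88 to TLR2 and TLR4. TICAM1, also called TRIF, serves TLR3 and TLR4, and TICAM2, also called TRAM, brings TICAM1 to TLR4. Both routes end in the destruction of IκBα, which frees NF-κB to enter the nucleus, and HSCs are known to carry several of these receptors.

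Of the 10 genes, 8 had a promoter window in the RefSeq table for GRCm38.p6, a window that runs from 250 bases before to 50 bases after the annotated start. The windows of *Ticam1*, *Tlr2* and *Irak1* are shown because these genes were among the 4 with an unadjusted p under 0.05 in KO against WT/HET (none was called after adjustment by edgeR), and that of *Myd88* because its level varied least. The 4 windows lie on the minus strand of their chromosomes, at chr17:56276718-56277017, chr3:83841559-83841858, chrX:74023872-74024171 and chr9:119339969-119340268. Capitals mark matches, on either strand, to the κB consensus bound by NF-κB or to the GC box GGGCGG.
Ticam1: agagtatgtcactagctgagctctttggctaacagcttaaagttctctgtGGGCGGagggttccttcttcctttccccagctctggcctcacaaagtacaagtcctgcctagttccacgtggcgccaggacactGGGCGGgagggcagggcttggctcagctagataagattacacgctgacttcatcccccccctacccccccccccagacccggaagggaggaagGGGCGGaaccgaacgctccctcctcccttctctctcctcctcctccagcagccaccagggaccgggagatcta
Tlr2: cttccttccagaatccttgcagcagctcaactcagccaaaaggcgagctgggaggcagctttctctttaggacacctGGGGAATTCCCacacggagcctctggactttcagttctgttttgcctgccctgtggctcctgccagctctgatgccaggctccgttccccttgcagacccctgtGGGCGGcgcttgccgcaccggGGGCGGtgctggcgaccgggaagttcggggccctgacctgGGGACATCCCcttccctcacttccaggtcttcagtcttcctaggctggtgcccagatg
Irak1: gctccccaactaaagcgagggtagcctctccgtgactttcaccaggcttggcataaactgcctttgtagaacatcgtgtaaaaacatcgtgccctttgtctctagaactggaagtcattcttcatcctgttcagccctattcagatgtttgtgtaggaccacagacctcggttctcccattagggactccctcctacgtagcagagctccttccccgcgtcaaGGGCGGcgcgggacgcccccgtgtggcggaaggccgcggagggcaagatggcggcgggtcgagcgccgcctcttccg
Myd88: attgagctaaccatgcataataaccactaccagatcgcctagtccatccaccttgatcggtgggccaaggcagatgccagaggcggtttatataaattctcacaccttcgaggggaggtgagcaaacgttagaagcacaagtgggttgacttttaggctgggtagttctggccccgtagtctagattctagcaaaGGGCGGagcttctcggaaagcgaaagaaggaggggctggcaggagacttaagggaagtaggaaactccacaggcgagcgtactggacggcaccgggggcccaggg
The *Tlr2* window held κB matches at -173, -172 and -8, counted from the annotated start as 0. Those at -173 and -172 overlap, and the match at -172 reads as a match on both strands. A κB match was present in 2 of the 8 genes, *Tlr2* and *Tlr3*, and in 4.5% of the 32817 windows of the table. GC boxes were present in all 8 genes, with 3 of them in the *Ticam1* window, and in 35.6% of all windows. The ETS-type letters CCGGAA were present in 3 of the 8 genes (*Tirap*, *Ticam1* and *Irak4*) and in 14.9% of all windows. These are matches of letters, and binding was not measured in these samples.

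The deleted gene was checked in every sample first. *Nfkbia* was at 45.3, 67.7 and 23.4 CPM (reads per 1000000 counted reads, with totals scaled by TMM factors) in WT1, WT2 and WT3 and at 23.3, 29.0 and 14.4 CPM in HET1, HET2 and HET3. KO1 held 1 read of it and KO2 held 0 reads. Between 17895973 and 21720972 reads were counted per sample, so that 3 reads correspond to 0.125 to 0.178 CPM, a floor that covers counting error only.

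The libraries differed in cell type markers. The summed level of 7 LT-HSC markers (*Kit*, *Ly6a*, *Slamf1*, *Procr*, *Mecom*, *Hlf* and *Ptprc*) was 1230, 1300, 1070 and 740 CPM in WT1, WT2, KO1 and KO2. It was 451, 398, 226 and 197 CPM in HET1, HET2, WT3 and HET3, so that these 4 samples lay below the other 4, and so did each of the 7 markers taken alone, although *Kit* was at 170 CPM in both WT1 and HET3 after rounding. *Ly6a*, which codes for the sorting marker SCA1, had 0 reads in HET3. *Cd48*, whose product was gated out, was detected in all 8 samples at 45.8 to 89.1 CPM. Hepatocyte markers summed to 1450 CPM in WT3 and 729 CPM in HET3, against 49.8 to 295 CPM in the other 6 samples. In bulk samples, fewer cells of a type and less RNA per cell cannot be told apart.

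Per length of exon, the levels of the 10 genes covered a wide range. *Myd88* was the highest, at 28.7 ± 2.11 RPKM (CPM per kilobase of exon, SD, n = 8), followed by *Irak1* at 16.1 ± 4.12 RPKM. *Myd88* was above *Irak1*, and *Irak1* above the next gene *Tlr2*, in 8 of 8 samples. *Tlr2* (4.25 ± 2.86 RPKM) and *Irak4* (3.24 ± 0.557 RPKM) did not differ beyond their spread, since *Tlr2* was the higher in 4 of 8 samples. *Irak2* (2.13 ± 0.591 RPKM), *Ticam1* (1.99 ± 0.865 RPKM), *Tirap* (1.24 ± 0.231 RPKM) and *Tlr4* (1.03 ± 0.88 RPKM) followed. Within this stretch, *Irak2* exceeded *Ticam1* in 5, *Ticam1* exceeded *Tirap* in 6 and *Tirap* exceeded *Tlr4* in 4 of the 8 samples. *Ticam2* at 0.502 ± 0.357 RPKM and *Tlr3* at 0.164 ± 0.132 RPKM were the lowest, and *Ticam2* was above *Tlr3* in 7 of 8 samples.

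**Figure D1:**
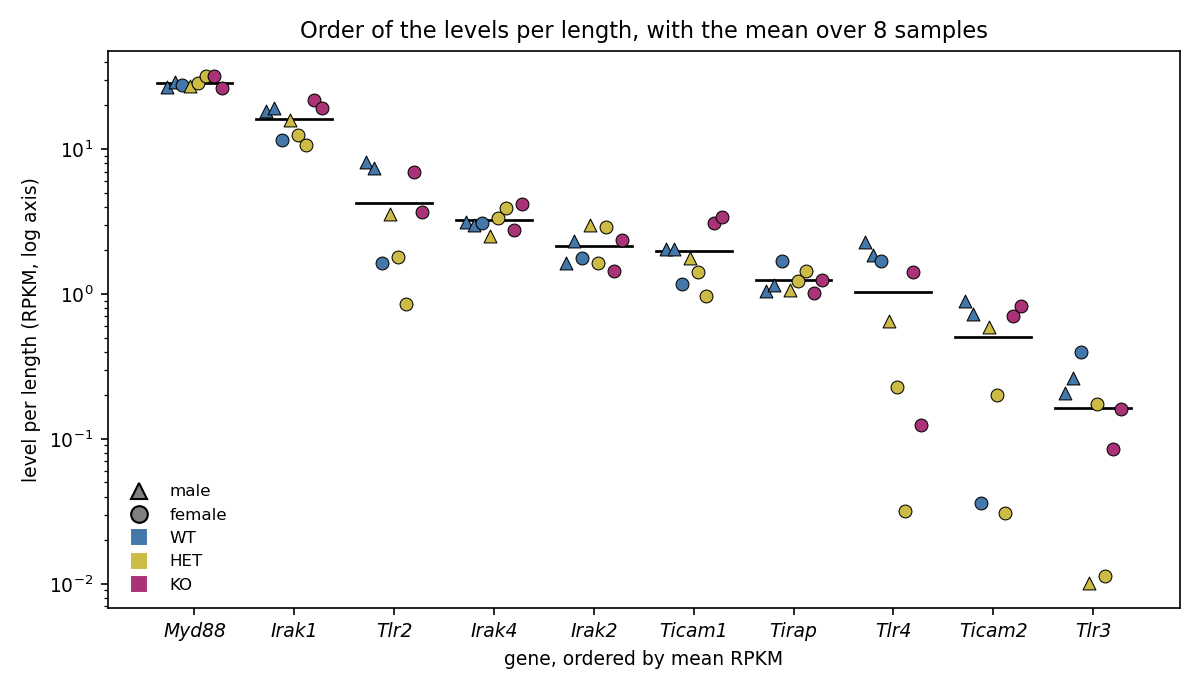
Level per length (RPKM, log axis) of the 10 genes in 8 samples, in order of their mean, which the horizontal line marks. Colours give the genotype and shapes the sex, and only *Myd88* and *Irak1* lie above the next gene in all 8 samples.

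The genes also differed in how much they varied between samples. The SD of log2 CPM over the 8 samples was 0.104 for *Myd88*, and only 1.77% of the 12862 tested genes with a mean of at least 1 CPM varied less. *Irak4* (0.241) and *Tirap* (0.249) were also below the median SD of those genes, 0.458, as were *Irak1* (0.388) and *Irak2* (0.393). *Ticam1* (0.618), *Tlr2* (1.17), *Tlr3* (1.43), *Ticam2* (1.79) and *Tlr4* (2.04) were above it. The most variable were thus the receptors *Tlr2*, *Tlr3* and *Tlr4* and the adaptor *Ticam2*, and the least variable was *Myd88*. Mean levels differed too, at 0.854 CPM for *Tlr3*, under the cut of 1 CPM, and 2.91 CPM for *Ticam2*, against 74.0 CPM for *Myd88*. The part of low counts in the spread was not tested.

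Loss of IκBα was compared with the pooled WT and HET samples, as in the study, with sex in the model. By the quasi-likelihood test of edgeR, 0 of the 10 genes were called (adjusted p under 0.05 and absolute log2 fold change over 1), beside 0% of the 20610 genes tested. The deleted gene *Nfkbia* was not called either, although it was rank 1 by p (log2 fold change -9.50, adjusted p = 0.0862 by edgeR). The absence of calls therefore does not show that the 10 genes were unchanged. With an unadjusted p under 0.05, 4 of the 10 were higher in KO (*Tlr2*, *Ticam1*, *Ticam2* and *Irak1*) and 0 were lower, where 15.7% of all genes were higher and 9.48% were lower, or 25.2% in either direction. DESeq2 with apeglm, the tools the study used, called 3 of the 10 (*Tlr2*, *Ticam1* and *Ticam2*), where it called 7.10% of all genes (1463 genes). Without HET2, edgeR called 730 of 20603 genes, 1 of the 10 (*Ticam2*) among them. The median log2 fold change of the 10 was 0.12, and that of all genes tested was 0.13.

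**Figure D2:**
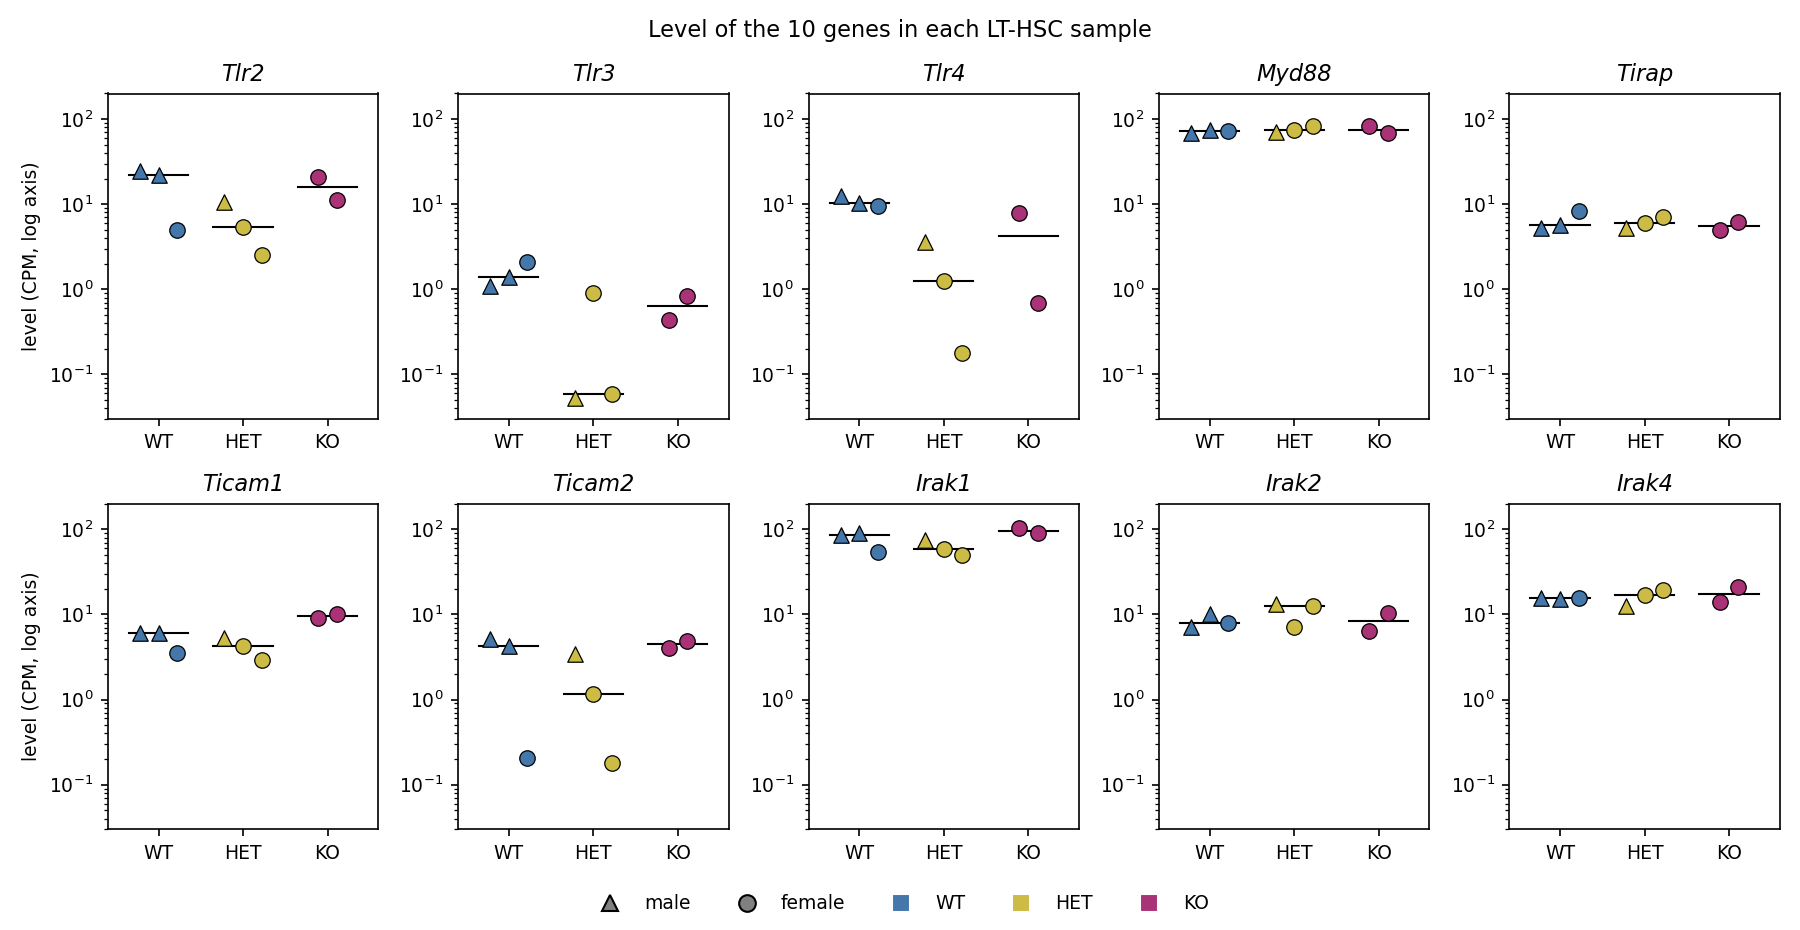
Level (CPM, log axis) of each gene in the 3 WT, 3 HET and 2 KO samples, with triangles for male and circles for female samples and a line at the group's median. *Ticam1* is the 1 gene in which both KO samples, at 9.20 and 10.2 CPM, lie above all 6 others, and *Myd88* stays between 68.3 and 82.2 CPM.

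Among the receptors, *Tlr2* (ENSMUSG00000027995, chr3:83836272-83841767 on the minus strand of GRCm38) was at 24.5, 22.2 and 4.95 CPM in WT1, WT2 and WT3. It was at 10.7, 5.40 and 2.55 CPM in HET1, HET2 and HET3, and at 20.9 and 11.2 CPM in KO1 and KO2. Both KO samples were below WT1 and WT2 and above the other 4 samples, so the groups overlapped. With sex in the model *Tlr2* was estimated 3.72-fold higher in KO (log2 fold change 1.90 ± 0.48 SE), with an adjusted p of 0.148 by edgeR and of 0.0108 by DESeq2 with apeglm. Without sex in the model the estimate was 0.45 ± 0.79 SE on the log2 scale.

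*Tlr4* (ENSMUSG00000039005, chr4:66827584-66930284, plus strand) was at 12.6, 10.3 and 9.43 CPM in WT and at 3.62, 1.26 and 0.178 CPM in HET1, HET2 and HET3, the last from 3 reads. KO1 and KO2 were at 7.83 and 0.688 CPM, so that KO1 lay between the HET and the WT levels and KO2 below 2 of the 3 HET samples. The fitted change was 0.23 ± 1.38 SE on the log2 scale, and it was -0.55 without sex in the model, so no direction can be read for KO.

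*Tlr3* (ENSMUSG00000031639, chr8:45395665-45411080, minus strand) was close to the limit of detection. WT1, WT2 and WT3 held 1.08, 1.38 and 2.08 CPM, HET2 held 0.908 CPM, and HET1 and HET3 held 1 read each. KO1 at 0.440 CPM and KO2 at 0.836 CPM lay inside the range of HET. The log2 fold change of KO against WT/HET was -0.67 ± 1.39 SE (adjusted p = 0.785 by edgeR).

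Of the adaptors, *Ticam1* (ENSMUSG00000047123, chr17:56269319-56276786, minus strand) was the gene that separated KO from the rest. Its levels were 6.08, 6.10 and 3.54 CPM in WT1, WT2 and WT3 and 5.32, 4.24 and 2.91 CPM in HET1, HET2 and HET3, against 9.20 and 10.2 CPM in KO1 and KO2. Both KO samples were above all 6 others, which 3.05% of all genes tested also showed. An exact two-sided permutation test, with p as 2 times the smaller one-sided p, gave p = 0.0714. That is the smallest value that this rule allows for 2 samples against 6. The estimate was 2.72-fold higher in KO (log2 fold change 1.44 ± 0.34 SE, adjusted p = 0.148 by edgeR and 0.000841 by DESeq2 with apeglm). It was 1.04 ± 0.38 SE without sex in the model, where *Ticam1* was the 1 gene of the 10 with an unadjusted p under 0.05, beside 2.00% of all genes. In WT3, HET2 and HET3, the female references, the level was 3.56 ± 0.666 CPM (SD, n = 3).

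*Ticam2* (ENSMUSG00000056130, on chromosome 18 from 46557291 to 46574533, minus strand) was at 5.19, 4.22 and 0.208 CPM in WT1, WT2 and WT3. It was at 3.40, 1.16 and 0.178 CPM in HET1, HET2 and HET3, and at 4.06 and 4.82 CPM in KO1 and KO2. The low values of WT3 and HET3 rest on 4 and 3 reads, and both KO samples were within the range of the WT samples. The log2 fold change was 3.08 ± 0.79 SE with sex in the model (adjusted p = 0.148 by edgeR and 0.00473 by DESeq2 with apeglm) and 0.89 ± 1.11 SE without it. *Ticam2* shares 838 bases of its exons with *Tmed7* on the same strand, a gene with 3069 to 4162 reads per sample. Reads in the shared bases cannot be assigned to 1 gene by position, so the level of *Ticam2* is less certain.

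*Myd88* (ENSMUSG00000032508, chr9:119335934-119341411, minus strand) was at 69.0, 75 and 71.8 CPM in WT, at 70.1, 73.5 and 82.2 CPM in HET and at 81.9 and 68.3 CPM in KO. Its highest and lowest samples differed 1.2-fold, and the log2 fold change of KO against WT/HET was -0.01 ± 0.15 SE. *Tirap* (ENSMUSG00000032041, chr9:35184551-35200291, minus strand) was at 5.19 to 8.33 CPM in WT, 5.21 to 7.12 CPM in HET and at 4.99 and 6.15 CPM in KO, with a log2 fold change of -0.36 ± 0.34 SE. The KO levels of both adaptors overlapped those of the references. *Myd88* overlaps exons of *Acaa1a* on the other strand over 290 bases. The strand setting of the counts is not given in the sources used here, so reads in these bases might not be assigned to the right gene.

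Of the kinases, *Irak1* (ENSMUSG00000031392, chrX:74013914-74023918, minus strand) was at 86.1, 90.8 and 54.1 CPM in WT1, WT2 and WT3 and at 75.1, 59.5 and 50.2 CPM in HET1, HET2 and HET3. KO1 and KO2 were at 103 and 90.2 CPM, above 5 of the 6 references, and WT2 lay between them. *Irak1* had the smallest error of the 4 genes with an unadjusted p under 0.05, with a log2 fold change of 0.82 ± 0.16 SE or 1.77-fold (adjusted p = 0.148 by edgeR), and it was rank 69 by p among all genes tested. DESeq2 with apeglm gave it an adjusted p of 0.00319, but its shrunken log2 fold change of 0.73 stayed under 1. Without sex in the model the estimate was 0.48 ± 0.25 SE.

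*Irak2* (ENSMUSG00000060477, chr6:113638467-113695026, plus strand) was at 7.21, 10.2 and 7.86 CPM in WT, at 13.2, 7.21 and 12.7 CPM in HET and at 6.41 and 10.3 CPM in KO. *Irak4* (ENSMUSG00000059883, chr15:94543643-94581815, plus strand), the first kinase of the route, was at 15.7, 15.1 and 15.5 CPM in WT, at 12.6, 16.9 and 19.5 CPM in HET and at 13.9 and 21.0 CPM in KO. *Irak4* shares 395 exon bases with *Twf1* on the other strand, a gene with 523 to 1102 reads per sample against 237 to 428 for *Irak4*, so its level and rank carry the same limit. The KO levels of both kinases overlapped those of WT and of HET. The log2 fold changes of KO against WT/HET were -0.14 ± 0.41 SE for *Irak2* and 0.02 ± 0.27 SE for *Irak4*.

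**Figure D3:**
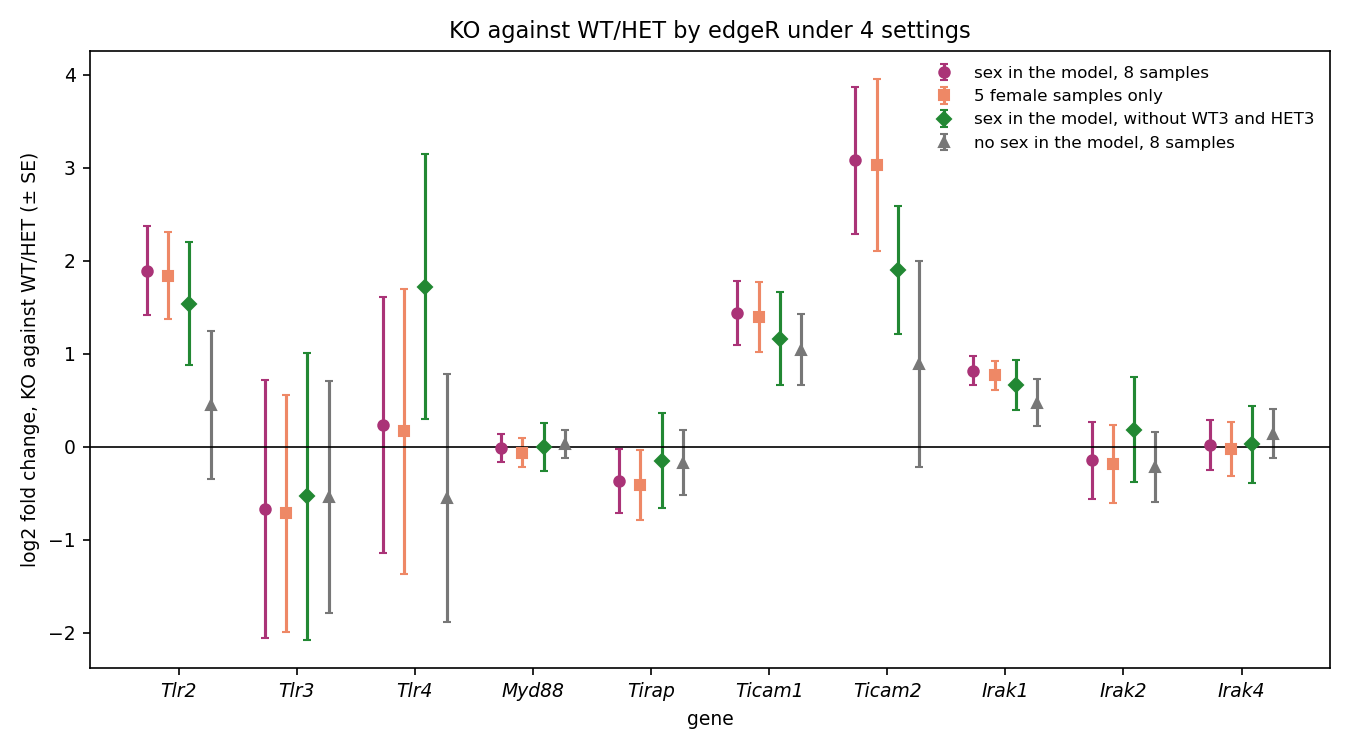
Log2 fold change of KO against WT/HET (± SE) for each gene by edgeR, in the fit with sex on 8 samples, in the 5 female samples only, without WT3 and HET3, and without sex. *Tlr2*, *Ticam1*, *Ticam2* and *Irak1* lie above 0 under all 4 settings, and *Tlr2* moves from 1.90 to 0.45 when sex leaves the model.

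The 4 genes with an unadjusted p under 0.05, none of them called by edgeR, shared 1 split of the samples. *Tlr2*, *Ticam1*, *Ticam2* and *Irak1* were each higher in WT1, WT2, KO1 and KO2 than in WT3, HET1, HET2 and HET3. This split held for 4 of the 10 genes and for 16.0% of all genes tested. It was not planned and was taken from the values of these 4 genes, so the 2 shares describe the data and test nothing. It is also the split of the summed LT-HSC markers given above (740 to 1300 CPM against 197 to 451 CPM), and of the summed endothelial markers, at 101 to 180 CPM against 29.7 to 69.8 CPM. Of the 7 endothelial markers, 3 (*Kdr*, *Tek* and *Emcn*) showed it taken alone, and *Cdh5*, *Stab2*, *Lyve1* and *Plvap* did not. The part of either in the 4 results was not tested. With WT3 and HET3 left out, a choice made after seeing the data, the number of the 10 genes with an unadjusted p under 0.05 went from 4 to 2 (*Ticam2* and *Irak1*), beside 5.09% of all genes, and the estimates were 1.54 ± 0.66 SE for *Tlr2* and 1.16 ± 0.50 SE for *Ticam1* on the log2 scale.

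**Figure D4:**
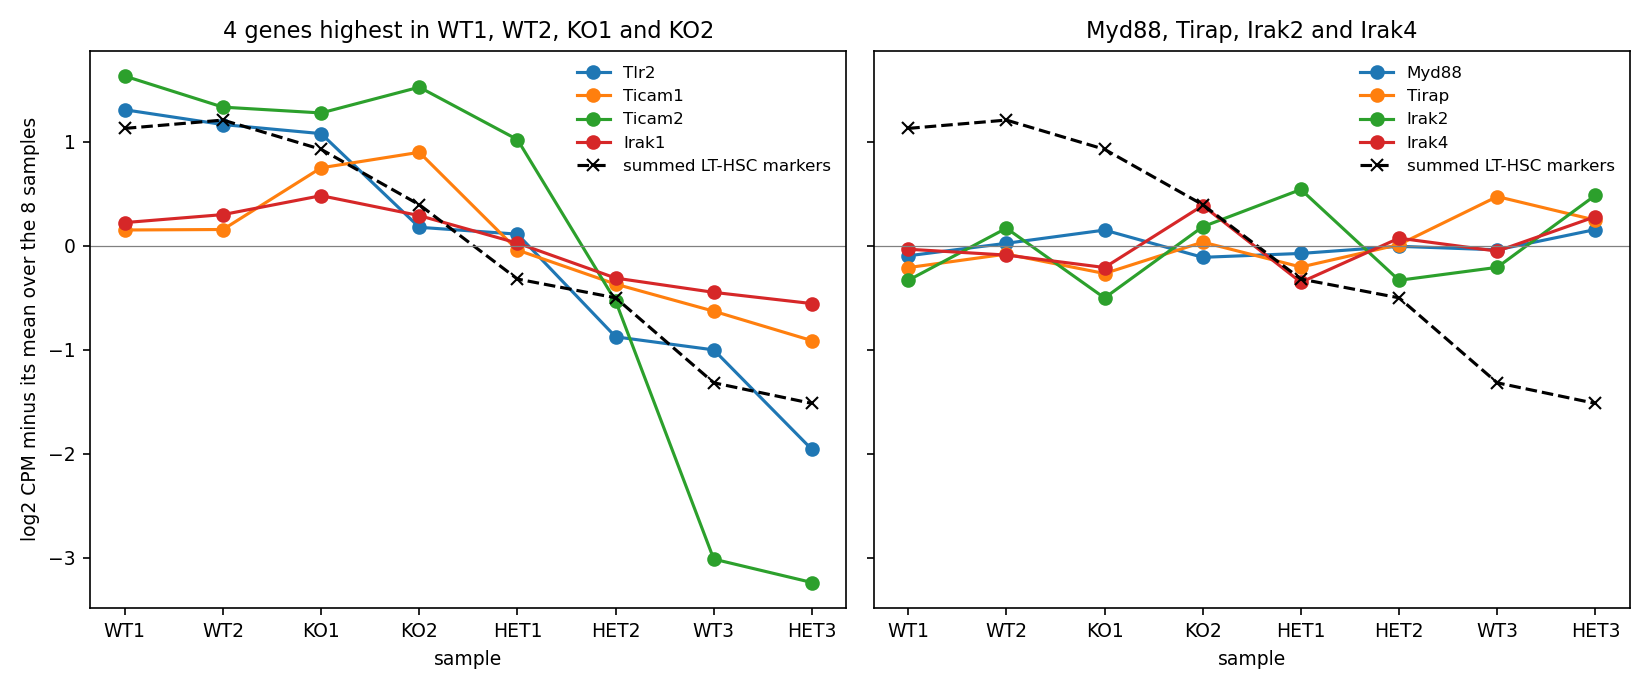
Log2 CPM of 8 of the genes, each minus its mean over the 8 samples, with the summed LT-HSC markers as a dashed line in both panels. *Tlr2*, *Ticam1*, *Ticam2* and *Irak1* on the left fall from the samples WT1, WT2, KO1 and KO2 to the other 4 as the markers do, and *Myd88*, *Tirap*, *Irak2* and *Irak4* on the right do not.

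Within the female samples, which hold both KO samples, the comparison needs no term for sex. It does not balance the LT-HSC markers, which summed to 1070 and 740 CPM in KO1 and KO2. In WT3, HET2 and HET3 they summed to 226, 398 and 197 CPM. Genotype and marker level thus cannot be told apart here, and the part of the markers was not tested. *Tlr2*, *Ticam1*, *Ticam2* and *Irak1* were higher in both KO samples than in all 3 female references, 4 of the 10 genes beside 27.1% of all genes tested. Exact two-sided permutation tests gave p = 0.2 for each, the smallest value for 2 samples against 3 with p as 2 times the smaller one-sided p. Fitted on these 5 samples by edgeR, the log2 fold changes were 1.84 ± 0.47 SE for *Tlr2*, 1.40 ± 0.38 SE for *Ticam1*, 3.03 ± 0.92 SE for *Ticam2* and 0.77 ± 0.16 SE for *Irak1*, with adjusted p from 0.118 to 0.130. No male KO sample was analysed here, so the same comparison cannot be made in male samples.

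The authors' sex-corrected table, in log2 units after variance stabilization, placed both KO samples above all 6 references for the same 4 genes, beside 19.3% of all genes, and below them for *Tirap*, beside 16.5%. In it *Irak1* was at 10.5 to 10.8 in the references and at 11.4 and 11.2 in KO, *Ticam2* was at 7.77 to 8.11 and at 8.58 and 8.67, and *Tirap* was at 8.35 to 8.55 and at 8.23 and 8.34, although in CPM its KO levels overlapped the references. The correction used these same samples, so this is not independent of the fit with sex in the model.

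Between the sexes, which here are also the RNA labels, edgeR called 0 of the 10 genes and 0.0194% of all genes. With an unadjusted p under 0.05, 3 of the 10 were higher in male samples (*Tlr2*, *Ticam2* and *Irak1*), beside 18.9% of all genes, and 0 were lower, beside 13.6%. *Tlr2* was at 19.1 ± 7.36 CPM in the 3 male and 4.30 ± 1.53 CPM in the 3 female WT and HET samples (SD), a log2 difference of 2.15 ± 0.45 SE in the fit (adjusted p = 0.0895 by edgeR). *Ticam2* was at 4.27 ± 0.897 and 0.516 ± 0.559 CPM (log2 difference 3.02 ± 0.75 SE), and *Irak1* at 84.0 ± 8.04 and 54.6 ± 4.69 CPM (0.62 ± 0.14 SE). Among the 6 references, the levels of *Tlr2*, *Ticam1*, *Ticam2* and *Irak1* were higher in all male than in all female samples, as for 21.1% of all genes, and *Tirap* was lower, as for 17.5% (exact two-sided permutation p = 0.1, the smallest possible, for each). The sum of the LT-HSC markers was likewise higher in each of the 3 male references (451 to 1300 CPM) than in the 3 female ones (197 to 398 CPM), and its part in the difference was not tested. *Tlr2* and *Ticam2* were called without HET1, beside 3070 of the 20607 genes tested, and without HET2, beside 1325 of 20603.

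HET samples, which keep 1 intact allele, were set against WT samples in a fit of these 6 samples that included sex. By edgeR 0 of the 10 genes were called, beside 0% of all genes, and 1 of the 10, *Tlr4*, was lower with an unadjusted p under 0.05, beside 1.83% of all genes that were lower. *Tlr4* was at 10.8 ± 1.66 CPM in WT and 1.69 ± 1.76 CPM in HET (SD, n = 3 each), a log2 fold change of -2.65 ± 0.78 SE with an adjusted p of 0.931. *Tlr3* was at 1.51 ± 0.517 CPM in WT and 0.340 ± 0.492 CPM in HET, with a log2 fold change of -2.96 ± 1.23 SE. In both receptors all HET samples were below all WT samples, as for 4.85% of all genes, with an exact two-sided permutation p of 0.1 that is the smallest value for 3 against 3. The other 8 genes overlapped between HET and WT. The summed level of 12 macrophage markers was 524 to 727 CPM in WT and 118 to 485 CPM in HET. *Lyz2* had the highest level of the 12, and the other 11 summed to 64.3, 175 and 342 CPM in WT1, WT2 and WT3 and to 174, 45.3 and 80.5 CPM in HET1, HET2 and HET3, which overlap. Of the 12 markers, 1 (*Cd68*) was lower in all HET than in all WT samples, and the part of these cells in the result was not tested. Without WT3, 0 of the 10 genes had an unadjusted p under 0.05, beside 14.1% of all genes, and without HET2 there were 3, beside 14.2%.

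Each reference genotype was also set against KO in a fit of all 8 samples. The contrasts share the KO samples, so their values are given side by side. By edgeR 0 of the 10 genes were called in either, beside 0% of all genes in each. The deleted gene *Nfkbia* was not called either, with an adjusted p by edgeR of 0.149 against WT and 0.123 against HET. With an unadjusted p under 0.05, *Tlr2*, *Ticam1*, *Ticam2* and *Irak1* were higher in KO than in WT, beside 5.82% of all genes, and the same 4 were higher in KO than in HET, beside 16.4%. *Ticam1* was at 1.38 ± 0.44 SE against WT and at 1.47 ± 0.38 SE against HET on the log2 scale, and *Irak1* at 0.75 ± 0.20 SE and 0.85 ± 0.17 SE. *Tlr2* was at 1.41 ± 0.55 SE against WT and 2.13 ± 0.46 SE against HET, and *Ticam2* at 3.45 ± 1.11 SE and 2.99 ± 0.85 SE. *Tlr4* was at -0.57 ± 1.18 SE against WT and at 2.08 ± 1.20 SE against HET. Without WT3, 0 of the 10 genes had an unadjusted p under 0.05 against WT, beside 2.17% of all genes. Without HET2, 1 of the 10 was called against WT (*Ticam2*), beside 850 of the 20603 genes tested. Against HET, 3 were called (*Tlr2*, *Ticam1* and *Ticam2*), beside 3243 of 20603. Without sex in the model, *Tlr2* was at -0.10 against WT.

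The wider pathway was taken from a list of 50 further genes, of which 46 could be tested. By edgeR 0 of the 46 were called in KO against WT/HET. With an unadjusted p under 0.05, 12 of the 46 were higher (beside 15.7% of all genes) and 0 were lower (beside 9.48%), and without sex in the model the counts were 0 and 0. DESeq2 with apeglm called 4 of the 46, beside 7.10% of all genes. By role, the 12 were 2 of 13 receptors, 2 of 7 accessory genes, 3 of 5 negative regulators, 0 of 3 ligands and 5 of 18 downstream genes. The median log2 fold change of the 46 was 0.60, against 0.13 over all genes tested. It was 0.14 without sex in the model, against 0.00089 over all genes. With scaling by library size alone it was 0.92, against 0.41 over all genes. Between the sexes, with an unadjusted p under 0.05, 18 of the 46 were higher in male samples (beside 18.9% of all genes) and 4 were lower (beside 13.6%). The median log2 difference of the 46 was 0.87 there, against 0.19 over all genes. The split of samples shared by *Tlr2*, *Ticam1*, *Ticam2* and *Irak1* was present in 9 of the 46 (19.6%, beside 16.0% of all genes).

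**Figure D5:**
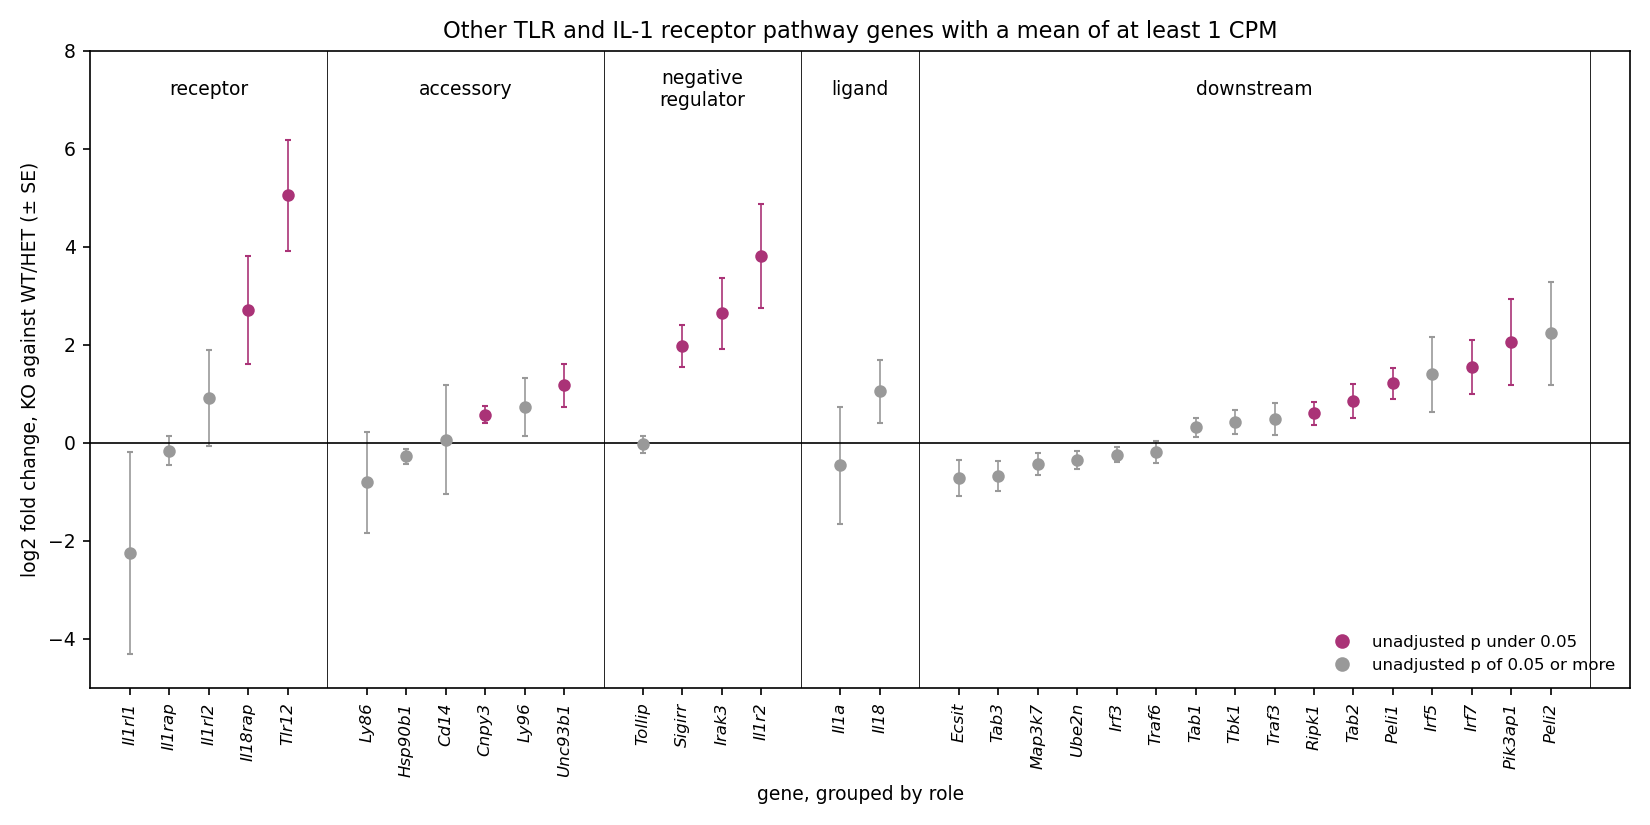
Log2 fold change of KO against WT/HET (± SE) by edgeR for the 33 other pathway genes with a mean of at least 1 CPM, grouped by role, with those of unadjusted p under 0.05 in purple. The negative regulators *Sigirr*, *Irak3* and *Il1r2* lie at 1.97 to 3.82 and *Tollip* at -0.03, and none passed after adjustment. *Il1rn*, with a mean under 1 CPM, is not drawn and was at -2.67. *Sigirr* and *Irak3* were higher in WT1, WT2, KO1 and KO2 than in the other samples. *Irak3* was at 42.5 and 28.8 CPM in KO1 and KO2, below WT1 and WT2 at 55.6 and 56.8 CPM.

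Among the 33 with a mean of at least 1 CPM, the largest positive estimates were those of *Tlr12*, *Il1r2* and *Il18rap*. *Tlr12*, a receptor for profilin of parasites, was at 1.97, 3.13 and 0 CPM in WT1, WT2 and WT3, at 0.691, 0.0504 and 0.119 CPM in HET1, HET2 and HET3, and at 0.979 and 3.05 CPM in KO1 and KO2. *Il1r2*, the decoy receptor that binds IL-1 without signalling, was at 2.99, 5.26 and 0.104 CPM in WT, at 1.38, 0 and 0.237 CPM in HET and at 2.25 and 1.03 CPM in KO. *Il18rap*, the accessory chain of the IL-18 receptor, was at 29.5, 25.2 and 3.49 CPM in WT, at 5.0, 6.71 and 0.119 CPM in HET and at 26.1 and 18.9 CPM in KO (log2 fold change 2.70 ± 1.10 SE, adjusted p = 0.180 by edgeR). In all 3 genes both KO samples were within the range of WT1, WT2 and WT3, and HET3 held 2 reads of *Tlr12*, 4 of *Il1r2* and 2 of *Il18rap*.

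The largest negative estimates were those of *Il1rl1*, *Ly86* and *Ecsit*, none of which passed at an unadjusted p under 0.05. *Il1rl1*, the receptor of IL-33, was at 0, 0.0836 and 3.65 CPM in WT1, WT2 and WT3, at 4.47, 5.60 and 6.64 CPM in HET and at 0 and 2.21 CPM in KO. It was the reverse of the split above, at or near 0 in WT1, WT2 and KO1. *Ly86*, which codes for MD-1 and partners CD180, had an estimate of -0.80 ± 1.03 SE, and *Ecsit*, a partner of TRAF6, one of -0.71 ± 0.37 SE.

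The signalling chain of the IL-1 receptor was at the edge of detection and its partner was not. *Il1r1* was at 0.148 to 1.91 CPM over the 8 samples, with 39 reads in KO1 and 3 in KO2. *Il1rap*, the partner chain of the IL-1 and IL-33 receptors, was at 9.87, 11.5 and 8.28 CPM in WT, at 10.3, 12.2 and 10.5 CPM in HET and at 10.2 and 8.31 CPM in KO (log2 fold change -0.16 ± 0.30 SE). *Il18r1* had 0 reads in 5 of the 8 samples. Of the TLR4 co-receptors, *Ly96* (MD-2) was at 2.02 to 18.7 CPM and *Cd14* at 0.294 to 4.79 CPM, with log2 fold changes of 0.73 ± 0.59 SE and 0.06 ± 1.11 SE.

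For the 3 genes with the largest spread, the genes with the nearest pattern of log2 CPM over the 8 samples were sought among 10099 genes with a mean of at least 5 CPM. *Ticam2* was nearest to *Sestd1* and *Atg16l2*, with root-mean-square differences of 0.334 and 0.344 after centring. *Tlr4* was nearest to *Pls1* (0.800) and *Slc16a7* (0.898), and *Tlr3* to *Tmem37* (0.777) and *Igsf6* (0.939). *Sestd1* was at 20.6, 17.8 and 1.77 CPM in WT, at 9.31, 5.04 and 1.01 CPM in HET and at 21.0 and 16.1 CPM in KO, so that the same 4 samples were the higher ones in both genes.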

How the data were processed

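Bulk RNA-seq of 8 samples of 500 LT-HSCs each was analysed (3 WT, 3 HET and 2 KO, with groups from the sample labels). According to the methods, the authors trimmed the 50 bp single-end reads with Trim Galore (0.6.6), aligned them to GRCm38 with STAR (2.7.8) and deposited raw counts of uniquely mapped reads per Ensembl gene. Unique mapping lowers genes with near-identical copies. The authors also deposited log2 values, variance-stabilized with DESeq2 (1.38.3) and corrected for sex, which were used for 1 comparison.

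Genes with at least 10 reads over the 8 samples were kept (20610, or 20585 for HET against WT), as in the methods. Counts were scaled by TMM and fitted with edgeR (4.0.16, limma 3.58.1, R 4.3.3), using its quasi-likelihood test on a model of sex plus genotype, and p-values were adjusted over all genes (Benjamini-Hochberg). Calls needed an adjusted p under 0.05 together with a log2 fold change beyond 1 in size. An alternative used DESeq2 (1.42.0) and apeglm (1.24.0). HET was compared with WT over their 6 samples. Exact two-sided permutation tests used log2 CPM (prior count 2), with p as 2 times the smaller one-sided p, and the smallest possible values given hold for this rule. RPKM used the merged exon length of GENCODE M21, which matched 55141 of 55487 gene IDs to a symbol. Alternatives were other normalizations and filters, a model without sex, a block for replicate number, female samples only and each sample left out.

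The 10 genes, the list of 50 and the marker lists were chosen with earlier results of these data known. Further pathway genes are named if they had 1 of the 3 largest estimates in either direction with a mean of at least 1 CPM, or are IL-1-type receptors or TLR4 co-receptors. For the 3 genes with the largest spread, the 2 nearest genes are named. Other genes were named after their values were seen. The design text describes the samples as independent biological replicates. No samples of a genotype agreed within sampling noise (chi-square per degree of freedom 18.9 to 261). Tests were tried on simulated data. Protein sequences were not used here.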

Additional observations from a re-analysis of the deposited data

How the results depend on the processing

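*Ticam1*, *Tlr2*, *Ticam2* and *Irak1* kept a positive estimate in KO against WT/HET under every alternative run. The count of genes called in KO against WT/HET was 0 by edgeR. It was 1463 with apeglm, 1825 by DESeq2 without shrinkage, 1 in the version 4 form of edgeR and 1106 without the filter. Of the 10 members, 3, 3, 0 and 2 were among them. These counts are of 20610 genes tested, or of 31478 without the filter. With 1 sample left out, 0 to 730 genes were called (730 without HET2, 8 without HET1), and 0 to 1 of the members (*Ticam2*, without HET2). KO against WT gave 131 genes by DESeq2 and 420 without the filter, and 0 to 850 genes and 0 to 1 members with 1 sample left out (850 and *Ticam2* without HET2). KO against HET gave 2480 genes and 3 members by DESeq2, 2979 and 2 without the filter, and 0 to 3243 genes and 0 to 3 members with 1 sample left out (the highest without HET2). HET against WT gave 64 genes by DESeq2, 131 and 1 member (*Tlr4*) without the filter, and 0 to 135 genes (135 without HET2) and 0 to 0 members. Between the sexes, 4 genes by edgeR became 2988 (2 members) by DESeq2, 7 in version 4, 2255 (2 members) without the filter and 2 to 3070 (0 to 2 members) with 1 sample left out, 3070 without HET1 and 1325 without HET2.

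Scaling by library size alone moved the median log2 fold change of all genes in KO against WT/HET from 0.13 to 0.41, and then *Myd88* was at 0.28 and *Irak2* at 0.13. Other estimates changed sign too. Without sex, *Tlr4* was at -0.55 (from 0.23), *Myd88* at 0.029 (from -0.01) and, against WT, *Tlr2* at -0.10, from 1.41 with sex in the model. Without WT3 and HET3, *Myd88* was at 0.0013 and *Irak2* at 0.18. *Irak4* was at -0.014 with apeglm, -0.020 by DESeq2 without shrinkage, -0.020 with RLE factors, -0.084 with upper quartile factors and -0.025 in female samples. With 1 sample left out, the ranges in KO against WT/HET were -1.23 to 0.36 for *Tlr3*, -2.39 to 2.52 for *Tlr4*, -0.15 to 0.11 for *Myd88*, -0.53 to 0.16 for *Irak2* and -0.31 to 0.28 for *Irak4*. For *Tlr4* they were -3.19 to 0.86 against WT and -0.54 to 2.95 against HET. A lone KO sample is assumed to vary like the other groups. The cause of these changes was not tested.

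The deviations of samples from the mean of their genotype had correlations of -0.346 to 0.59 between samples with the same replicate number. They were over 0.1 in 5 of 7 pairs and negative in both pairs of KO2. With 2 KO samples, the deviations of KO2 are those of KO1 with the sign reversed. WT2 thus had 0.346 with KO1 and -0.346 with KO2, and the pairs with KO samples cannot decide the question. Among WT and HET, the same numbers had 0.293, 0.198 and 0.59, but WT2 and HET1, with different numbers, had 0.403. The numbers were not taken to pair the samples, and whether they do was not settled. With the replicate number as a block, KO against HET gave 1 gene and the sexes 0. Of the members, 1 had an unadjusted p under 0.05 in KO against WT/HET in place of 4, where the share of all genes went from 25.2% to 2.86%. *Myd88* was at 0.0051, *Irak2* at 0.34 and, against HET, *Tlr4* at -0.17, from 2.08 without the block.

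With 2 KO samples, both female, and 3 reads at 0.125 to 0.178 CPM, changes in *Tlr3*, *Tlr4* and *Ticam2* rest on samples with 1 to 4 reads and were the least certain.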

Other observations

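The level of several pathway receptors and ligands was low. *Tlr9*, which senses unmethylated CpG DNA, *Tlr11* and *Il33* had 0 reads in every sample, which allows at most 0.125 to 0.178 CPM per sample. *Tlr8* was read in WT3 (5 reads) and HET1 (6 reads) only, and *Tlr13* in WT2 only (15 reads). *Tlr7*, a sensor of single-stranded RNA, had 23 reads in WT2 and in WT3 and 0 reads in WT1 and HET1. *Il1b* was at 0 to 2.13 CPM, highest in WT2 and at 1.76 CPM in KO1.

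Marker sums of other blood cells varied within genotypes. Erythroid markers summed to 8330 CPM in HET1, against 506 to 3230 CPM in the other 7 samples. Megakaryocyte markers summed to 1260 CPM in WT2 and 1010 CPM in KO1, against 23.3 CPM in HET3 and 107 CPM in KO2. Neutrophil and monocyte markers were highest in WT3, at 817 CPM.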
